A study of Arabidopsis thaliana with 24 samples.

Results

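The genes described here encode proteins of the large (60S) subunit of the cytosolic ribosome of Arabidopsis thaliana. Of 60 listed loci, 47 had a probe set that named them and no other gene, and these 47 genes, each read by 1 probe set, are described over all 24 arrays. The other 13 loci were not measured by this rule: 7 shared a probe set with another gene and 6 were named by none. The 47 genes fall into 27 protein families, of which 17 had at least 2 measured paralogs, 37 genes in all. Family names (RPL4, RPP0 and so on) follow the usual nomenclature of plant ribosomal proteins and were not taken from the deposited table.

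The large subunit holds the centre that joins amino acids into protein and the tunnel through which the new chain leaves. Most of its proteins are present in a single copy per ribosome, those of the tips of its stalk in several, and in plants nearly every one is encoded by several paralogs. Transcripts of cytosolic ribosomal proteins are known to be abundant in dividing and growing tissue, meristems among them, and to be raised by sugar and auxin. Cambium, the stem meristem that makes wood and bast, forms between the vascular bundles of the stem from cells at or beside the starch sheath, the innermost layer of the cortex.

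All samples came from wild-type plants and were taken by laser capture from cross sections of the stem, with 3 biological replicates in each of 8 groups. Sheath groups were the starch sheath cultured with the synthetic auxin NAA (naphthaleneacetic acid) for 2 days, the starch sheath cultured on MS medium for 2 days, and the untreated starch sheath. At 5 days the groups were the interfascicular cambium formed on NAA and the starch sheath on MS medium. The remaining stem tissue, without starch sheath and vascular bundles, was taken after 2 and 5 days on NAA and from untreated stems; stem tissue on medium alone is not among the groups. Cultured groups came from excised stem fragments of 1.5 cm and untreated groups did not, so excision, culture and time cannot be told apart in any comparison with untreated tissue. The labels do not say how many plants went into 1 replicate, so p-values measure the spread between these samples. RNA was amplified before hybridisation to Affymetrix ATH1 arrays. Their number limits the precision.

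Values are the authors' deposited log2 values, in which the median over all arrays and probe sets was 3.09. Arrays differed in their spread: 3 untreated arrays, replicates 2 and 3 of the sheath and replicate 3 of the stem, had SDs of 0.96 to 1.08 over all probe sets, against 1.22 or more on the other arrays. All 5 listed chlorenchyma markers were measured, and their mean level was 5.60 to 6.6 in cambium and 5.59 to 6.23 in stem after 5 days on NAA, against 6.01 to 8.33 on the arrays of the other groups. Of the defining markers, 1 of 3 for the starch sheath (JKD), 1 of 6 for cambium (MOL1) and 2 of 6 for phloem were measured. None of those listed for xylem or epidermis was. JKD was at 3.21 to 4.48 in untreated sheath and 2.80 to 3.12 in untreated stem. In culture it was at 2.55 to 3.33 in sheath and 2.47 to 3.38 in stem. MOL1 was at 3.13 to 6.33 in cambium and 2.35 to 4.25 in the other groups. The mean of the 2 phloem markers was 5.97 to 7.50 in stem after 5 days on NAA, taken without vascular bundles. In the other groups it was 3.69 to 6.13. The tissue labels could therefore be checked only in small part.

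The set as a whole stood at its lowest in untreated tissue and at its highest after 2 days in culture. The median level of the 47 genes was 4.85 ± 0.62 in untreated sheath, 7.87 ± 0.28 in sheath after 2 days on NAA and 7.31 ± 0.42 after 2 days on medium (SD over arrays, n = 3 each). After 5 days it was 7.08 ± 0.70 in cambium and 6.85 ± 0.53 in sheath on medium. In stem tissue it was 5.54 ± 0.61 untreated, 7.56 ± 0.22 after 2 days on NAA and 6.89 ± 0.26 after 5 days on NAA (SD, n = 3 each). In descending order the groups were sheath on NAA at 2 days, stem on NAA at 2 days, sheath on medium at 2 days, cambium, stem on NAA at 5 days, sheath on medium at 5 days, untreated stem and untreated sheath, and the ranges of the 3 arrays overlapped between every pair of neighbours except between sheath on medium at 5 days and untreated stem. Every one of the 18 cultured arrays had a median above those of all 6 untreated arrays.

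The rank of the genes on their own array, which a plain rescaling of the array leaves unchanged, gave the same separation. The median gene stood at percentile 95.4 to 98.3 of all probe sets on the cultured arrays, against 84.9 to 88.4 in untreated sheath and 89.0 to 90.8 in untreated stem. The narrow arrays had the lowest percentiles of their groups, at 86.5 and 84.9 against 88.4 in sheath and 89.0 against 90.8 and 90.2 in stem. Counted by gene, 31 of 47 had their highest group mean in sheath after 2 days on NAA, 11 in stem after 2 days on NAA, 4 in sheath after 2 days on medium and 1 in untreated sheath. The lowest group mean lay in untreated sheath for 39 genes and in untreated stem for 4. In these captured samples, fewer cells that express the genes and less RNA per cell cannot be told apart.

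**Figure D1:**
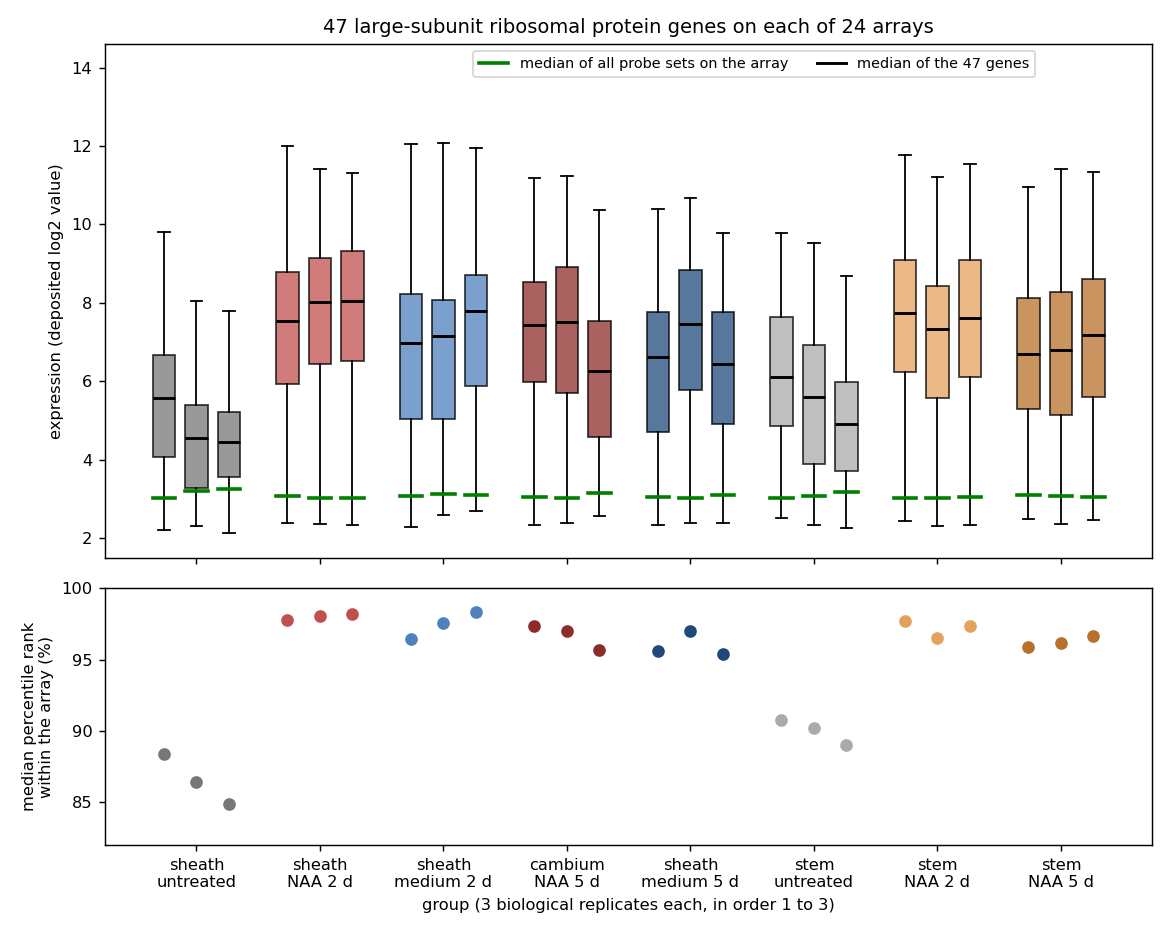
Levels of the 47 genes on each of 24 arrays (upper panel, deposited log2 value: box from the lower to the upper quartile, whiskers to the lowest and highest gene, black line the median gene, green line the median of all probe sets) and the median percentile rank of the genes within their array (lower panel, %), for 8 groups with 3 replicates each. All 18 cultured arrays lie at percentile 95.4 or above, and the 6 untreated arrays at 90.8 or below.

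The largest differences were those between cultured and untreated tissue, which share the untreated arrays and are therefore not independent of each other. In sheath after 2 days on NAA, 43 of 47 genes rose relative to untreated sheath and 0 fell, with a median log2 change of 3.02. Called here means an adjusted p under 0.05 in limma over all 22746 probe sets, of which 11.7% were called in this comparison (7.47% higher) and whose median change was -0.11. After 2 days on medium without auxin 31 genes rose and 0 fell (median change 2.26; 4.94% of all probe sets called, 3.97% higher). In cambium after 5 days on NAA 34 genes rose relative to untreated sheath and 0 fell (median 2.09; 8.58% called, 6% higher), and in sheath after 5 days on medium 29 rose and 0 fell (median 1.78; 6.34% called, 4.32% higher). In stem tissue 30 genes rose after 2 days on NAA (median 1.75; 3.23% called, 2.18% higher) and 12 after 5 days (median 1.06; 4% called, 2.37% higher), and 0 fell at either time.

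RPL30 (AT1G77940), a small protein that in yeast is known to bind its own transcript, had the smallest p among the 47 genes in each of these 6 comparisons. Its levels were 8.88, 9.26 and 9.32 in sheath after 2 days on NAA, 9.43, 9.56 and 9.51 after 2 days on medium, and 5.99, 5.09 and 5.25 in untreated sheath. It reached 9.0, 9.04 and 8.07 in cambium and 7.65, 8.22 and 7.37 in sheath after 5 days on medium. All cultured sheath and cambium arrays lay above all untreated sheath arrays. In stem tissue it stood at 9.17, 8.25 and 8.74 after 2 days and 8.49, 8.28 and 9.07 after 5 days on NAA, against 6.12, 6.27 and 6.5 in untreated stem, again with no overlap. The fitted rise over untreated sheath was 16.6-fold on medium for 2 days (log2 change 4.05, SE 0.30, limma adjusted p = 3.8e-07) and 13.1-fold on NAA for 2 days (3.71, SE 0.30, adjusted p = 2.4e-06). In stem it was 5.36-fold after 2 days (2.42, SE 0.30, adjusted p = 3.0e-04). RPL30 had its highest group mean on medium rather than on NAA, as 4 of the 47 genes did. Its sheath level on NAA minus that on medium at 2 days was -0.35, which was not called (SE 0.30, limma adjusted p = 0.75).

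Among the proteins of the stalk, the arm of the subunit to which elongation factors bind, 8 genes were measured: 3 for RPP0, which carries the stalk, 2 for RPP2, one of its flexible tips, and 3 for RPL12, which lies at its base. After 2 days on NAA 7 of these 8 rose relative to untreated sheath (7.47% of all probe sets called higher). On medium 5 of 8 did so (3.97%). Compared directly, NAA against medium called 1 of the 8. RPP0 AT3G09200 measured 10.45, 9.70 and 10.57 in sheath after 2 days on NAA, 10.08, 9.98 and 9.82 on medium, and 7.46, 5.39 and 5.06 untreated. Both cultured groups lay wholly above the untreated one, whose replicate 1 stood apart from the other 2. The rise was 19.2-fold on NAA (log2 change 4.26, SE 0.48, adjusted p = 4.3e-05) and 15.8-fold on medium (3.99, SE 0.48, adjusted p = 9.7e-05). RPL12 AT5G60670 changed less but varied less: 7.39, 7.01 and 7.36 on NAA, 6.57, 6.95 and 7.44 on medium, and 4.64, 4.89 and 5.17 untreated. Its rise was 5.13-fold on NAA (2.36, SE 0.27, adjusted p = 5.2e-05) and 4.26-fold on medium (2.09, SE 0.27, adjusted p = 1.8e-04). It also rose in cambium (3.55-fold; 1.83, SE 0.27, adjusted p = 3.5e-04) and in stem after 5 days on NAA (2.68-fold; 1.42, SE 0.27, adjusted p = 0.0046).

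Proteins that line the exit tunnel or surround its opening (RPL4, RPL17, RPL19, RPL26, RPL31 and RPL35) were represented by 12 genes. All 12 rose after 2 days on NAA relative to untreated sheath, where 7.47% of all probe sets were called higher. On medium 8 of 12 did so (3.97% of all probe sets higher). Compared directly, NAA against medium called 1 of the 12. In cambium 10 of the 12 rose relative to untreated sheath, and in stem 8 after 2 days and 2 after 5 days on NAA. RPL17 AT1G67430, whose protein reaches into the tunnel wall, measured 9.65, 9.73 and 10.09 in sheath after 2 days on NAA and 9.30, 9.33 and 8.69 in cambium, against 7.35, 6.28 and 5.78 in untreated sheath. The 3 groups did not overlap, and the rise was 10.2-fold after 2 days (log2 change 3.35, SE 0.38, adjusted p = 4.8e-05) and 6.22-fold in cambium (2.64, SE 0.38, adjusted p = 2.6e-04). RPL19 AT3G16780 was among the clearest in stem tissue, at 5.47, 5.28 and 5.90 after 2 days and 5.01, 5.57 and 5.18 after 5 days on NAA, against 4.55, 2.56 and 3.15 untreated. It rose 4.38-fold after 2 days (2.13, SE 0.37, adjusted p = 0.0036) and 3.56-fold after 5 days (1.83, SE 0.37, adjusted p = 0.0076). RPL4 AT3G09630, another protein of the tunnel wall, rose 5.92-fold in sheath after 5 days on medium (2.57, SE 0.42, adjusted p = 0.0013).

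Relative to untreated sheath, 24 of the 27 genes assigned to neither role rose in sheath after 2 days on NAA and 18 on medium. Of the same 27, 18 rose in cambium and 17 in sheath after 5 days on medium. Their median changes, 3.19, 2.56, 2.29 and 2.12, were above those of the stalk genes (2.54, 1.74, 1.79 and 1.42) and the tunnel genes (2.63, 1.99, 1.85 and 1.41) in all 4, a difference that was not tested. RPL7 AT2G44120 measured 7.81, 8.04 and 8.66 after 2 days on NAA and 7.51, 8.15 and 8.33 on medium, against 5.04, 3.13 and 3.54 in untreated sheath. Its rise on medium, 17.1-fold, had a log2 change of 4.1 (SE 0.58, adjusted p = 3.6e-04). Its paralog AT2G01250 rose 12.3-fold in sheath after 5 days on medium (3.62, SE 0.57, adjusted p = 9.9e-04). RPL37 AT1G52300, a zinc-binding protein, measured 12.06, 12.08 and 11.95 after 2 days on medium and 9.81, 8.05 and 7.81 untreated, a rise of 11.1-fold (3.47, SE 0.41, adjusted p = 8.9e-05). It also rose in stem after 5 days on NAA (3.76-fold; 1.91, SE 0.41, adjusted p = 0.011). RPL22 AT3G05560 rose 7.75-fold after 2 days on medium (2.95, SE 0.41, adjusted p = 3.5e-04) and 6.41-fold in cambium (2.68, SE 0.41, adjusted p = 5.0e-04). RPL13a AT3G07110, whose mammalian counterpart also acts in translational silencing outside the ribosome, rose in stem, 7.84-fold after 2 days (2.97, SE 0.54, adjusted p = 0.0049) and 5.61-fold after 5 days (2.49, SE 0.54, adjusted p = 0.012).

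**Figure D2:**
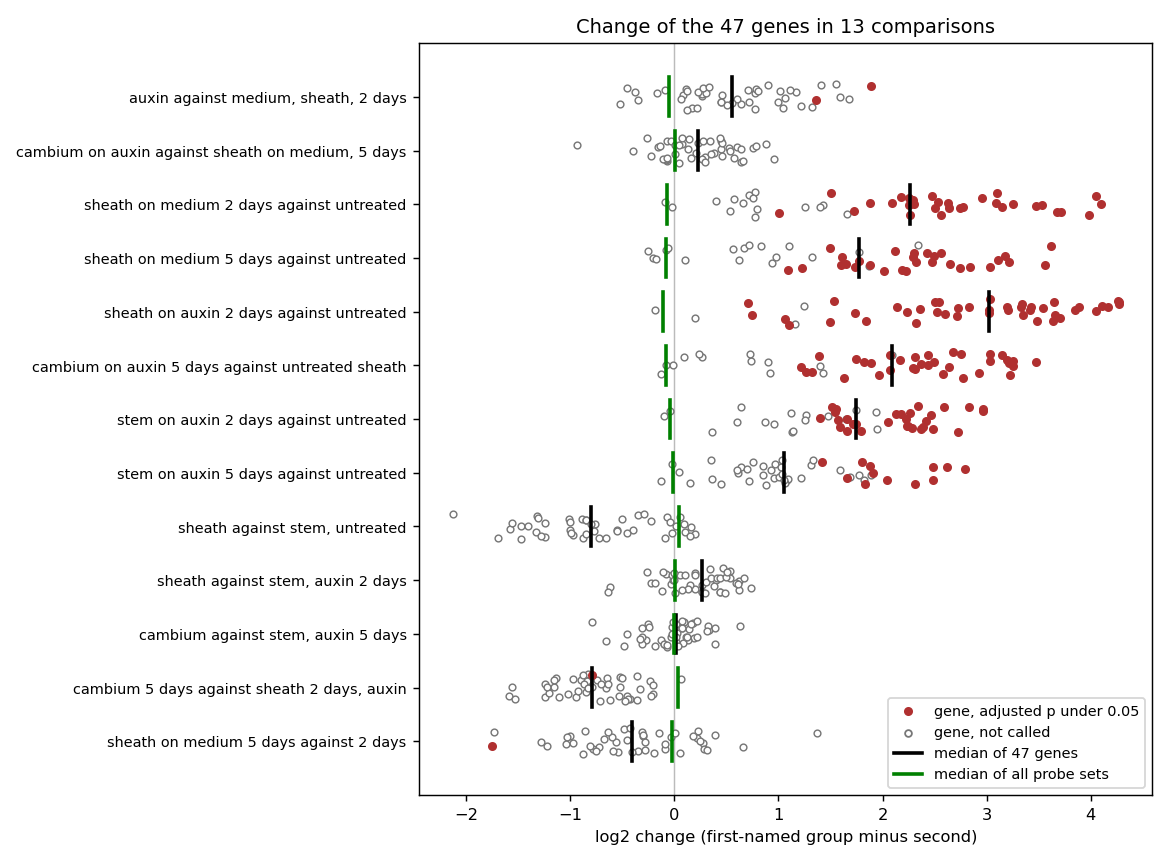
Log2 change of each of the 47 genes (circles; filled where the limma adjusted p was under 0.05) in 13 comparisons, the first-named group minus the second, with the median of the 47 genes (black line) and of all probe sets (green line). The 6 comparisons with untreated tissue have medians of 1.06 to 3.02, and the comparisons between cultured groups have medians of -0.79 to 0.55.

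Across the 6 comparisons with untreated tissue, 10 genes were called higher in all 6, against 0.444% of all probe sets, and 4 were called in none, against 79.8%. These 4, named because they fell outside the general movement, were RPP0 AT2G40010, RPL14 AT2G20450, RPL35a AT1G07070 and RPL37a AT3G10950. RPL37a AT3G10950 had the lowest signal of the set, 2.20 to 2.81 on all 24 arrays, which is below the median of all probe sets in every group. RPP0 AT2G40010 lay at 2.48 to 3.47. The genes whose probe sets gave stronger signals were called more often. Of the 24 with the higher mean signal 24 rose after 2 days on NAA and 23 on medium. Of the 23 with the lower mean signal 19 and 8 rose, against 7.47% and 3.97% of all probe sets called higher. This mean covers all 24 arrays, cultured ones included. A rise in culture itself raises it, so the split is not independent of the calls. The highest signals were those of RPL37 AT1G52300 (mean over 24 arrays 10.68), RPL28 AT2G19730 (8.82) and RPL15 AT4G16720 (8.80), and the lowest those of RPL37a AT3G10950 (2.44), RPP0 AT2G40010 (2.83) and RPL36 AT2G37600 (3.21); signals of different probe sets do not rank the transcripts.

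**Figure D3:**
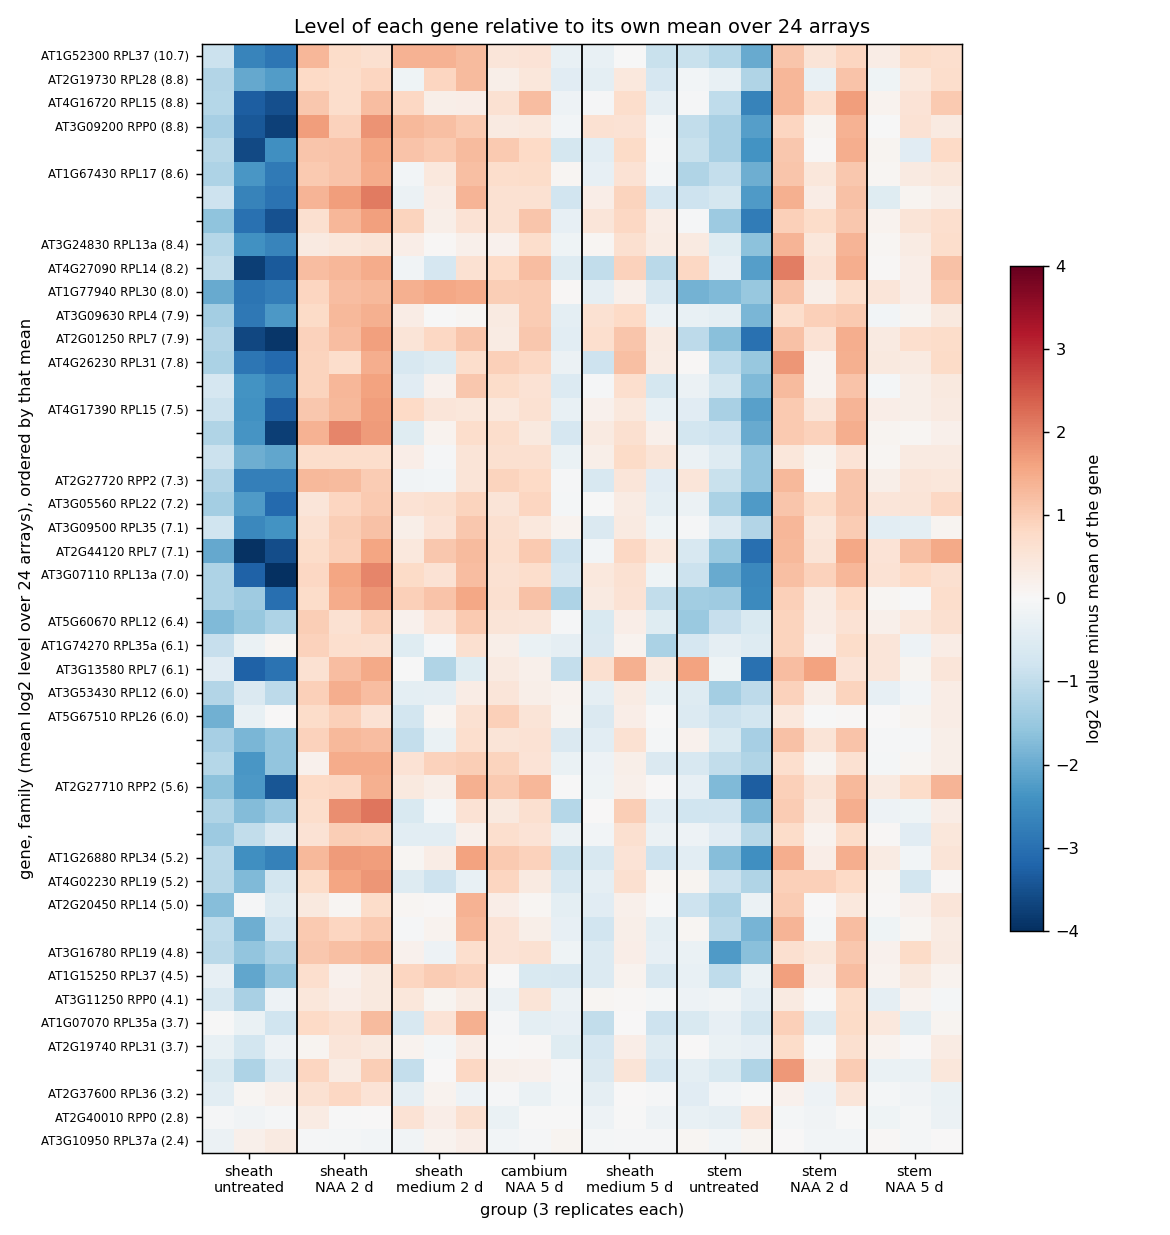
Level of each gene on each array minus the mean of that gene over 24 arrays (log2; blue lower, red higher), for 47 genes ordered by mean level, with the genes named in the text labelled and their mean level in brackets, and 8 groups of 3 replicates. Untreated arrays are blue for most genes and cultured arrays red or pale, while the rows at the foot, with mean levels of 2.4 to 3.2, vary less than most.

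A pair of technical measures moved with the difference between cultured and untreated tissue. The 3′ probe sets of the GAPDH control exceeded its 5′ probe sets by 5.52 to 7.43 on cultured arrays, against 3.93 to 5.50 on untreated arrays (log2). The 3′ signal, itself the level of a plant gene, was 7.94 to 9.98 cultured and 6.61 to 8.15 untreated, while the 5′ signal was 2.42 to 2.90 on all arrays. The excess was also fitted as a covariate. Its slope comes from differences within groups and is carried across cultured and untreated ranges that do not overlap. The adjustment therefore cannot cleanly separate it from culture. With this covariate 1 gene rose after 2 days on NAA (0.044% of all probe sets called). On medium 1 rose at 2 days (1.58%) and 1 at 5 days (1.44%), and in cambium 0 (0.488%). In stem 1 rose after 2 days (1.26%) and 0 after 5 days on NAA (5.49%). The median changes were then 1.17 after 2 days on NAA, 0.05 and 0.57 on medium for 2 and 5 days, 0.46 in cambium, and 0.70 and 0.02 in stem. The part of the excess in the result was not tested. Leaving out the 3 narrow untreated arrays leaves the untreated sheath with 1 array. The median changes were then 2.28 after 2 days on NAA, 1.32 and 1.22 on medium for 2 and 5 days, and 1.43 in cambium. In stem they were 1.53 after 2 and 0.84 after 5 days on NAA, with 20 and 12 genes called (3.88% and 6.35% of all probe sets). The size of the change also depended on the scaling between arrays: after cyclic loess the medians were 1.76 after 2 days on NAA, 1.30 and 0.87 on medium for 2 and 5 days, 1.04 in cambium, and 1.24 and 0.72 in stem.

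Auxin itself was tested by the sheath on NAA against the sheath on medium at 2 days. Of the 47 genes 2 rose and 0 fell, against 0.382% of all probe sets called in either direction and 0.229% higher. The genes were higher on average by 0.55 in median log2 change, with 41 above 0 and 6 below, against a median of -0.06 over all probe sets, and 10 genes were higher and 1 lower at an unadjusted p under 0.05, against 10.1% of all probe sets in either direction. The median was 0.24 after cyclic loess and 0.18 after quantile normalization, under which 2 genes rose and 1 fell (0.506% of all probe sets called). On 15 genes the 3 NAA arrays lay wholly above the 3 medium arrays, and on 2 wholly below, against 9% and 13.4% of all probe sets.

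The 2 genes that rose were RPL12 AT3G53430 and RPL19 AT4G02230. RPL12 AT3G53430 measured 7.0, 7.51 and 7.28 on NAA and 5.67, 5.69 and 6.33 on medium, with no overlap, a rise of 2.57-fold (log2 change 1.36, SE 0.27, adjusted p = 0.028). RPL19 AT4G02230 measured 5.93, 6.77 and 6.96 on NAA and 4.70, 4.39 and 4.92 on medium, also with no overlap, a rise of 3.69-fold (1.89, SE 0.40, adjusted p = 0.041). Both calls were lost when only these 6 arrays were fitted, and either or both were lost when single arrays were left out. The call of RPL12 AT3G53430 was also lost after cyclic loess, after quantile normalization and with an intensity trend. That of RPL19 AT4G02230 was also lost with a replicate block. By role, the 12 tunnel genes had a median change of 0.75 (0.22 to 1.89), the 8 stalk genes 0.31 (-0.38 to 1.36) and the other 27 genes 0.46 (-0.53 to 1.68). With the GAPDH excess as a covariate 16 genes rose (median 1.12), while the share of all probe sets called was 7.83%.

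The later comparison, at 5 days, set cambium formed on NAA against the sheath kept on medium, so that tissue and auxin differ together. None of the 47 genes was called in limma (0 of 47, against 3.49% of all probe sets), and 2 had an unadjusted p under 0.05, both higher in cambium, against 13% of all probe sets. The median log2 change was 0.23, with 34 genes above 0 and 13 below. With the GAPDH excess as a covariate the median turned to -0.39 with 0 called, and with array weights it was 0.58 with 12 called higher (15.1% of all probe sets called). RPL30 AT1G77940 had the smallest p, at 9.0, 9.04 and 8.07 in cambium and 7.65, 8.22 and 7.37 in sheath on medium (log2 change 0.96, SE 0.30, adjusted p = 0.097), with overlapping groups. RPL12 AT5G60670 (0.60, SE 0.27, adjusted p = 0.34) and RPL26 AT5G67510 (0.64, SE 0.39, adjusted p = 0.58) were next. The plastid 50S genes, of which 7 were measured, had a median change of -0.80 in this comparison with 0 called. The difference between the auxin comparisons at 5 and at 2 days, tested as an interaction, was called for 0 of 47 genes (1.01% of all probe sets) and had an unadjusted p under 0.05 for 7, against 10.9% of all probe sets. Its direction depended on the processing: 2 genes were called higher after quantile normalization (1.5% of all probe sets called) and 2 with array weights (4.24%), but 10 lower with the GAPDH excess as a covariate (6.24%) and 2 lower without the narrow arrays (2.56%). Its largest values by p were those of RPL19 AT4G02230 (-1.82, SE 0.56, adjusted p = 0.15), RPL30 AT1G77940 (1.31, SE 0.43, adjusted p = 0.19) and RPL36 AT2G37600 (-0.80, SE 0.27, adjusted p = 0.20).

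Between tissues no gene was called. Untreated sheath had lower values than untreated stem for 40 of 47 genes, with a median log2 difference of -0.80, but 0 were called in limma (0.202% of all probe sets) while 17 had an unadjusted p under 0.05 (13.8% of all probe sets). The median difference was -0.16 after cyclic loess, -0.50 after quantile normalization, -0.20 with the GAPDH excess as a covariate and -0.42 without the narrow arrays. RPL13a AT3G24830 measured 7.25, 5.96 and 5.74 in sheath and 8.74, 7.91 and 6.74 in stem (difference -1.48, SE 0.42, adjusted p = 0.17). RPL35 AT3G09500 (-1.32, SE 0.39, adjusted p = 0.20) and RPP2 AT2G27720 (-1.56, SE 0.48, adjusted p = 0.21) followed, with overlapping arrays in all 3. This comparison rests on single arrays. Without replicate 1 of the untreated sheath 23 genes were called lower (17.3% of all probe sets called). That fit keeps only the narrow arrays, replicates 2 and 3, in the untreated sheath. Without replicate 3 of the untreated stem, itself narrow, 3 were called lower (0.945%). With array weights 25 were called lower (19.8%).

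After 2 days on NAA the sheath and the stem differed by a median of 0.26, with 0 of 47 genes called (0.246% of all probe sets) and 1 at an unadjusted p under 0.05 (4.51%). That gene, RPL36 AT2G37600, measured 3.80, 4.05 and 3.75 in sheath and 3.38, 3.02 and 3.70 in stem (difference 0.50, SE 0.19, adjusted p = 0.81). RPL12 AT3G53430 (0.53, SE 0.27, adjusted p close to 1) and RPL37 AT1G15250 (-0.64, SE 0.37, adjusted p close to 1) were next. With the replicate number as a block, fitted on these groups alone, 0 were called as well. After 5 days on NAA cambium and stem differed by a median of 0.01, with 0 called (0.356% of all probe sets) and 0 at an unadjusted p under 0.05 (5.28%). The smallest p values were those of RPL37 AT1G15250 (-0.65, SE 0.37), RPL35 AT3G09500 (0.63, SE 0.39) and RPL7 AT2G44120 (-0.79, SE 0.58), each with an adjusted p close to 1.

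The change on culture had a higher value in sheath than in stem in most genes, without a call. The sheath change minus the stem change, from untreated tissue to 2 days on NAA, had a median of 1.05 and was above 0 for 43 of 47 genes, with 0 called (0.00879% of all probe sets) and 9 at an unadjusted p under 0.05 (6.16%). RPL30 AT1G77940 (1.28, SE 0.43, adjusted p = 0.77), RPP0 AT3G09200 (1.98, SE 0.67, adjusted p = 0.77) and RPP2 AT2G27720 (1.94, SE 0.68, adjusted p = 0.77) had the smallest p. The same difference to 5 days, sheath to cambium against stem, had a median of 0.74 with 0 called (0.0308%) and 5 at an unadjusted p under 0.05 (9.08%), a share of the genes near that of all probe sets. After cyclic loess the median was 0.36 at 2 days and 0.09 at 5 days. At 5 days the smallest p values were those of RPL35 AT3G09500 (1.95, SE 0.56, adjusted p = 0.28), RPL4 AT3G09630 (1.52, SE 0.59, adjusted p = 0.46) and RPP2 AT2G27720 (1.71, SE 0.68, adjusted p = 0.47). Without replicate 1 of the untreated sheath, 4 genes were called at 2 days (2.62% of all probe sets) and 2 at 5 days (4.84%). Only the narrow arrays then remain in that group. With array weights 16 (7.16%) and 23 (19.3%) were called.

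From 2 to 5 days most of the 47 genes had lower values under both treatments, but 1 was called in each. On NAA the captured tissue also changes, from sheath to cambium, so tissue and time cannot be told apart there. Cambium at 5 days had lower values than sheath on NAA at 2 days for 46 of 47 genes (median -0.79), and 28 genes had cambium arrays wholly below the sheath arrays, against 8.85% of all probe sets. In limma 1 gene fell and 0 rose, against 2.02% of all probe sets called (0.835% lower), and 14 were lower at an unadjusted p under 0.05 (11.7% of all probe sets in either direction). The gene that fell was RPL36 AT2G37600, at 3.17, 2.93 and 3.13 in cambium and 3.80, 4.05 and 3.75 in sheath (log2 change -0.79, SE 0.19, adjusted p = 0.034). Its levels lie near the median of all probe sets, and the call was lost when any 1 of these 6 arrays was left out. On medium alone, 35 of 47 genes were lower at 5 than at 2 days (median -0.41), and 1 fell and 0 rose (0.303% called, 0.158% lower), with 8 lower at an unadjusted p under 0.05 (8.19% of all probe sets in either direction). This direction turned with the GAPDH excess as a covariate, under which the median was 0.55 and 1 gene was called higher and 0 lower (3.16% of all probe sets called); for cambium against sheath on NAA the median was then -0.93, with 7 called lower (3.57%). The gene called lower without the covariate was RPL30 AT1G77940, at 7.65, 8.22 and 7.37 at 5 days and 9.43, 9.56 and 9.51 at 2 days, 3.38-fold lower at 5 days (log2 change -1.76, SE 0.30, adjusted p = 0.014). Its call was lost without replicate 1 or 3 at 5 days or replicate 2 at 2 days.

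Over all 8 groups, 40 of 47 genes differed somewhere (limma F test, adjusted p under 0.05), against 13.7% of all probe sets. The range between the lowest and the highest group mean ran from 0.19 for RPL37a AT3G10950 to 4.30, with RPL30 AT1G77940 at 4.05. Each gene's correlation with the median of the set over the 24 arrays was above 0.9 for 27 genes and above 0.7 for 40; the arrays share the step from untreated to cultured tissue, so this is a description. The closest to the median were RPL17 AT1G67430 (r = 0.98), RPL34 AT1G26880 (0.97) and RPL13a AT3G07110 (0.97), and the farthest RPL37a AT3G10950 (-0.43), RPP0 AT2G40010 (0.12) and RPL36 AT2G37600 (0.32).

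A test of departure asked which genes had a profile over the 8 groups unlike that of the median gene, by fitting each gene's level minus that median on the same array. It called 20 of 47 genes, against 98.6% of all probe sets, most of which do not move with the set at all. With nearly all probe sets called, the adjustment hardly changes a p, so these calls are close to unadjusted ones. Its 8 smallest p values were those of RPL37a AT3G10950, RPP0 AT2G40010, RPL31 AT2G19740, RPL36 AT2G37600, both measured RPL35a genes (AT1G07070 and AT1G74270), RPL7 AT2G44120 and RPP0 AT3G11250, with adjusted p from 3.1e-07 to 5.4e-04. Of these, RPL7 AT2G44120 varied more than the median gene and the other 7 less. The probe sets of RPL37a AT3G10950, RPP0 AT2G40010 and RPL36 AT2G37600 have weak signals. Their group means range over only 0.19, 0.66 and 0.87, so they depart from a moving median by construction. RPL36 AT2G37600 still differed between groups (limma F test, adjusted p = 0.031). The median itself depends on which genes lag, so a call says only that a profile differed from it.

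Paralogs were compared by the difference between their levels on the same array. In it anything that scales the whole array by a constant cancels, but a difference in spread between arrays does not. The size of such a difference depends on the probes and carries no meaning here; its change between groups does. Over the 23 pairs of the 17 families, the range of the group means of this difference ran from 0.60 (RPL35a) to 4.07 (RPP0), with a median of 1.31. In 5 pairs it was under 1 and in 7 over 2. The correlation of paralogs over the 24 arrays ran from 0.23 to 0.97, with a median of 0.82. No probe sequences were used here, so how far a probe set also binds the transcript of a paralog was not tested.

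In RPP0, AT3G09200 rose in every comparison with untreated tissue, while AT3G11250 rose in sheath after 2 days on NAA and on medium only, and AT2G40010 was called in none. The signal of AT2G40010, 2.48 to 3.47, had a mean under the median of all values in 7 of 8 groups, where a change in its transcript may not be seen. Its difference from AT3G09200, the widest of the 23, therefore mainly restates the level of AT3G09200 and does not rank the family. AT3G09200 minus AT3G11250, whose group means reached 4.44, was 5.79 ± 0.39 in sheath after 2 days on NAA and 5.57 ± 0.19 on medium, against 2.59 ± 1.42 in untreated sheath (SD, n = 3 each). In stem it was 5.13 ± 0.28 after 2 days and 5.10 ± 0.06 after 5 days on NAA, against 3.45 ± 0.49 untreated (SD, n = 3 each). All 18 cultured arrays (4.60 to 6.10) lay above all 6 untreated arrays (1.18 to 4.01). Of the 23 pairs, 2 were so separated, this one and AT3G09200 with AT2G40010. The 3 lowest untreated values of AT3G09200 minus AT3G11250, 2.59, 1.18 and 2.92, were those of the 3 narrow arrays. The other untreated arrays gave 4.01, 3.89 and 3.53. The part of the spread in this separation was not tested. AT3G11250 had a weak signal throughout, at 2.80 to 4.80 on all arrays and at 3.45, 2.80 and 3.89 in untreated sheath. How far this difference restates the level of AT3G09200 was not tested.

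RPL14, a protein of the solvent-facing side, diverged mainly on the narrow arrays. AT4G27090 minus AT2G20450 was 4.12, 4.53 and 4.0 in sheath after 2 days on NAA and 3.07, 2.58 and 2.49 on medium, without overlap, and 3.98, -0.45 and 0.45 in untreated sheath. In untreated stem it was 4.94, 4.19 and 1.30. The 3 low untreated arrays are the 3 with the narrow spread, and the other 3 untreated arrays, at 3.98, 4.19 and 4.94, lay close to or above the sheath arrays on NAA.

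In RPL7 the difference depended on the pair. AT2G01250 and AT2G44120 had a correlation of 0.97 over the 24 arrays and a range of group means of 0.84. AT3G13580 had correlations of 0.80 and 0.78 with them, near the median of all pairs, and ranges of 2.75 and 2.67; how these differ was not tested. AT2G01250 minus AT3G13580 was 1.93 ± 0.15 in sheath after 2 days on NAA, 3.15 ± 0.78 on medium and 1.09 ± 0.27 untreated (SD, n = 3 each). At 5 days it was 2.23 ± 0.45 in cambium and 1.68 ± 0.18 in sheath on medium (SD, n = 3 each). AT3G13580 itself measured 6.70, 7.32 and 7.59 after 2 days on NAA and 6.09, 4.90 and 5.60 on medium, with no overlap. In untreated stem it ran from 3.10 to 7.70, so that stem gave no clear picture.

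In RPL31, whose protein sits at the rim of the tunnel's opening, AT4G26230 minus AT2G19740 was 4.80 ± 0.44 in sheath after 2 days on NAA and 3.85 ± 0.61 on medium, against 2.12 ± 0.98 in untreated sheath (SD, n = 3 each). In cambium it was 4.77 ± 0.37 and in sheath after 5 days on medium 4.66 ± 0.62 (SD, n = 3 each). Untreated sheath replicates 2 and 3, which are narrow arrays, gave 1.96 and 1.23, against 3.17 for replicate 1. AT2G19740, at 2.98 to 4.43 on all arrays, had a weak signal throughout and lies next to RPL28 AT2G19730 on chromosome 2, with which its correlation over the 24 arrays was 0.78.

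RPL13a went the other way: its pair converged in culture. AT3G24830 minus AT3G07110 was 0.93, 0.29 and -0.02 in sheath after 2 days on NAA and 0.91, 0.88 and 0.39 on medium, against 1.51, 2.20 and 2.75 in untreated sheath, so that both cultured groups lay wholly below the untreated one. In stem it was 1.59, 0.94 and 1.43 after 2 days and 0.90, 0.95 and 1.46 after 5 days on NAA, against 2.62, 2.95 and 2.32 untreated, again without overlap. In cambium (0.98 to 1.93) and in sheath after 5 days on medium (1.06 to 1.89) it overlapped with untreated sheath. AT3G07110 was thus the paralog with the larger rise, although both rose after 2 days on NAA.

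**Figure D4:**
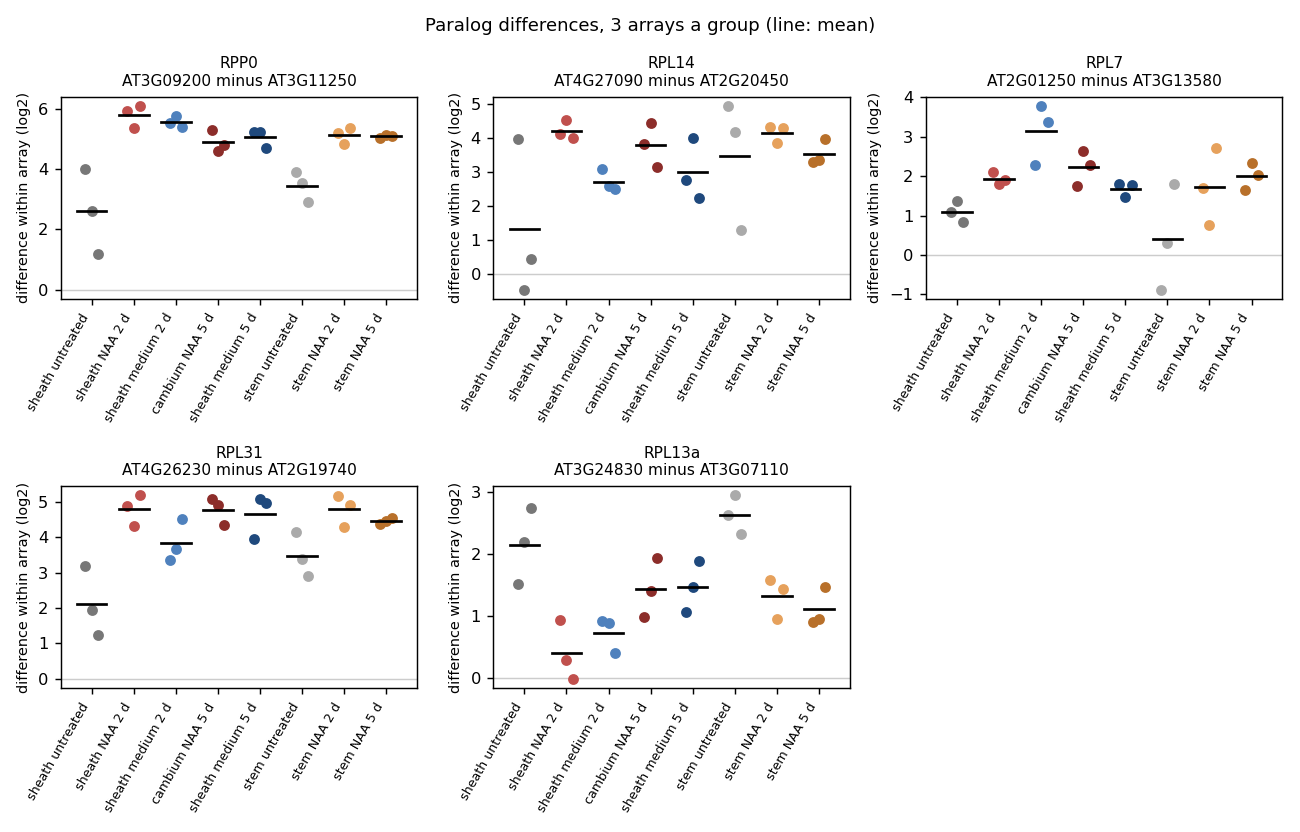
Difference between 2 paralogs on the same array (log2, y axis) in RPP0, RPL14, RPL7, RPL31 and RPL13a, for 8 groups on the x axis, with 3 arrays each as points and their mean as a line. The RPP0 pair is at 4.60 or more on cultured arrays and 4.01 or less on untreated ones, and the RPL13a pair is lower after 2 days in culture than untreated.

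Families with little divergence, named after their values were seen, included RPL15 (AT4G16720 minus AT4G17390, range of group means 0.76, r = 0.97) and RPL26 (0.65, r = 0.82). RPP2 AT2G27710 and AT2G27720, neighbours on chromosome 2, had a correlation of 0.90, and their difference ranged over 1.75. RPL12, with 3 paralogs, had ranges of 1.02 to 1.31. The RPL12 pair AT5G60670 minus AT3G53430 was -0.01 ± 0.45 in sheath after 2 days on NAA and 1.09 ± 0.17 on medium (SD, n = 3 each), and the groups did not overlap. AT3G53430 rose on auxin against medium, a call lost under some alternatives, while AT5G60670 overlapped between them and was not called.

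Other genes of protein synthesis, from lists chosen with the series' earlier results known, moved alongside. After 2 days on NAA relative to untreated sheath, 25 of 37 measured genes at other 60S loci rose (median 1.34), as did 38 of 48 for the small (40S) subunit (2.37), 10 of 13 for ribosome biogenesis (1.30), 4 of 7 for the plastid 50S subunit (1.41) and 2 of 3 translation factors (1.01), and 0 fell in any. On medium for 2 days the counts were 15 of 37, 28 of 48, 5 of 13, 1 of 7 and 0 of 3. In cambium relative to untreated sheath they were 15 of 37, 27 of 48, 5 of 13, 0 of 7 and 1 of 3, and the median for the plastid subunit was 0.01. Relative to sheath on medium, no gene of these lists was called in limma on NAA at 2 days or in cambium at 5 days. At 2 days the smallest p among them belonged to the 60S gene AT3G55170 (log2 change 0.70, SE 0.18, adjusted p = 0.11) and the 40S gene AT2G17360 (1.67, SE 0.43, adjusted p = 0.11), and in ribosome biogenesis to AT3G22660 (0.72, SE 0.21, adjusted p = 0.19). At 5 days they were the plastid 50S gene AT5G65220 (-1.03, SE 0.33, adjusted p = 0.11) and the 60S gene AT5G57290 (0.98, SE 0.34, adjusted p = 0.16).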

How the data were processed

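The 24 samples, 3 in each of 8 groups, were hybridised to 1 Affymetrix ATH1 array each. The authors deposited 1 table of log2 values for the series. Per the submitters' processing notes they used RMA and limma, without versions. The log base is not written in the table and was taken as that of RMA. Depth does not apply to arrays, and no scanner files were used here. The table holds 22810 probe sets; 64 controls were left out and 22746 tested. Genes were named from the platform annotation, in which 13513 probe sets name 1 gene. Chromosomes and neighbours came from assembly TAIR10.1.

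A linear model with 1 mean per group was fitted over all 24 arrays with limma 3.58.1 and eBayes in R 4.3.3 (prior degrees of freedom 2.55, residual 16). Every p adjusted by Benjamini-Hochberg covers all probe sets tested, tests are two-sided and the threshold was 0.05. There were 13 comparisons of groups, 3 of differences between changes, an F test over the groups and an F test of each gene minus the median of the 47 genes. The script was tested on simulated data. The members, lists and paralog families were chosen with earlier results of these data known, and the roles (stalk, tunnel) were assigned after values had been seen. Genes named are up to 6 called members per direction and comparison by smallest p (otherwise the 3 smallest p), the 3 highest and 3 lowest signals, the 8 smallest p of departure, the 6 most divergent families, and members of other lists by smallest p; others were named after their values were seen. A result that these rules would name is not reported here.

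Replicate numbers pair samples only if all same-numbered pairs deviate together by more than 0.1: this held for sheath against stem at 2 days on NAA (r = 0.13, 0.51 and 0.33) and for no other comparison. Alternatives were the replicate block, cyclic loess and quantile normalization, array weights (statmod 1.5.0 was loaded), an intensity trend with a robust prior, the GAPDH excess as covariate, a filter on dim probe sets, leaving out the narrow arrays or each array, and fitting the compared groups alone. No probe or gene sequences were used here.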

Additional observations from a re-analysis of the deposited data

How the results depend on the processing

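Counts are of the 47 genes called, and percentages in brackets are the shares of all probe sets called in the same fit. Of 40 named calls none reversed and 3 held under every alternative, all of RPL30 AT1G77940 (sheath on medium and on NAA at 2 days, and stem at 2 days, each against untreated), while 37 were lost under at least one. Calls of the set reversed under 1 alternative: for medium at 5 against 2 days the GAPDH covariate gave 1 higher and 0 lower (3.16%). Medians changed sign under that covariate (0.55 there, against -0.41, and -0.39 for cambium against sheath on medium, against 0.23), for the interaction of auxin and time after quantile normalization and with array weights (both 0.02, against -0.26), and for cambium against stem, near 0 in any case, after quantile normalization (-0.03) and without some arrays. With a replicate block, auxin against medium at 2 days had 1 (0.404%) and medium at 5 against 2 days had 2 (0.378%). The block moved no other count by over 1.5 times. Cyclic loess gave 14 for sheath on medium at 5 days (4.89%) and 22 for cambium (8.07%), each against untreated. It gave 3 for cambium against sheath on NAA at 2 days (2.87%) and 3 for medium at 5 against 2 days (0.743%). Quantile normalization gave 19 for stem at 5 days against untreated (5.93%) and 2 higher for the interaction of auxin and time (1.5%). It gave 2 lower each for untreated sheath against stem (0.809%) and medium at 5 against 2 days (0.752%). Array weights, whose fit gave convergence warnings, gave 6 for auxin at 2 days (2.18%) and 12 higher for cambium against sheath on medium (15.1%). They gave 28 for stem at 5 days (20%) and 25 lower for untreated sheath against stem (19.8%). For cambium against sheath on NAA they gave 7 (7.74%), for medium at 5 against 2 days 5 (2.1%), and for the interaction 2 higher (4.24%). Sheath against stem change had 16 higher at 2 days (7.16%) and 23 at 5 days (19.3%). Departure had 47, with 100% of all probe sets called, so that count carries no information. The intensity trend gave 1 for auxin at 2 days (0.339%) and 0 for medium at 5 against 2 days (0.303%). The GAPDH covariate gave 16 for auxin at 2 days (7.83%). Against untreated it gave 1 each for medium at 2 days (1.58%), medium at 5 days (1.44%) and NAA at 2 days (0.044%), and 0 for cambium (0.488%). In stem against untreated it gave 1 at 2 days (1.26%) and 0 at 5 days (5.49%). It gave 7 for cambium against sheath on NAA (3.57%), 10 lower for the interaction (6.24%), 20 for any difference (11.8%) and 13 for departure (95.4%). Without the narrow arrays there were 4 for auxin at 2 days (0.989%) and 4 for cambium against sheath on NAA (3.65%). Medium at 5 against 2 days had 3 (0.659%), and the interaction 2 lower (2.56%). Against untreated, the median changes were then 1.32 and 1.22 for medium at 2 and 5 days and 1.43 for cambium. These rest on the lone untreated sheath array, which the fit assumes to vary like the other groups. Fitting the compared groups alone, with fewer residual degrees of freedom, gave 0 for auxin at 2 days (0.00879%). Against untreated it gave 5 (0.677%) and 3 (0.998%) for medium at 2 and 5 days and 2 for cambium (0.703%). In stem against untreated it gave 1 (0.202%) and 5 (1.88%) at 2 and 5 days. It gave 0 for cambium against sheath on NAA (0.255%) and 2 for medium at 5 against 2 days (0.492%). Apart from the fits with fewer arrays, the cause of these shifts was not tested.

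Leaving out each array in turn gave 0 to 3 for auxin against medium at 2 days and 0 to 1 for cambium against sheath on medium. Against untreated sheath it gave 24 to 35 for medium at 2 days, 13 to 35 for medium at 5 days, 38 to 44 for NAA at 2 days and 23 to 37 for cambium. Medium at 5 days had 13 without replicate 2 on medium (2.28%), and 15 (2.82%) and 18 (3.81%) without untreated sheath replicates 2 and 3. Stem against untreated had 9 to 35 at 2 days and 4 to 17 at 5 days. At 2 days it had 9 (1.53%) and 14 (1.49%) without NAA replicates 3 and 1, and 10 (2.13%) and 17 (2.33%) without untreated stem replicates 3 and 2. At 5 days it had 4 without untreated stem replicate 3 (3.63%) or NAA replicate 3 (1.79%), and 6 without NAA replicate 2 (1.93%). Leaving out single arrays gave 0 to 23 for untreated sheath against stem and 0 to 2 for cambium against sheath on NAA. The 23 (17.3%) came without untreated sheath replicate 1, which leaves only narrow arrays in that group. The ranges were 0 to 2 for medium at 5 against 2 days, and 0 to 4 and 0 to 2 for sheath against stem change at 2 and 5 days. They were 36 to 42 for any difference and 14 to 25 for departure. Auxin at 2 days had 0 without NAA replicate 2 or 3 or medium replicate 1 or 2. Averaging several probe sets of a gene was not run, since each gene had 1. The dim filter dropped 1 of the 47, AT3G10950. Weak signals limit what can be seen in the dimmest genes.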
